A study of Mus musculus with 7 samples.

Results

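Txnip, 4 further alpha-arrestins, Arrdc1, Arrdc2, Arrdc3 and Arrdc4, and the paired transcription factors Mlxip (MondoA) and Mlx were followed in splenic CD4+CD25+ cells of aged and young mice. The 7 genes were chosen by symbol, and all 7 were found among the 25469 genes of the series table. RNA-sequencing covered 3 libraries from 18-month mice (aged) and 4 from 8-week mice (young), each labelled as a biological replicate. All mice were wild type (WT), and the study's methods describe male C57BL/6 animals. Those methods state another age for the young mice than the labels, and the labels are followed here. The cells were taken from the spleen with a magnetic bead kit for regulatory T cells (Tregs), and neither source says whether a library pooled several mice. p-values therefore measure the spread between these libraries.

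Alpha-arrestins are adaptor proteins that bring ubiquitin ligases of the NEDD4 family to membrane proteins, so that the cargo is taken up and sorted. Txnip, the best known of them, binds and inhibits thioredoxin and restrains glucose uptake by promoting the internalisation of the glucose transporters GLUT1 and GLUT4. Arrdc4 also restrains glucose uptake, Arrdc1 releases small vesicles from the plasma membrane together with Tsg101, and Arrdc3 takes part in the sorting of beta-adrenergic receptors. Mlxip senses phosphorylated glucose, pairs with Mlx, and binds carbohydrate response elements (ChoREs) in front of Txnip and Arrdc4. In T cells Txnip is abundant at rest and is turned down on activation and growth.

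The bases in front of Txnip and Arrdc4 are shown because both are known targets of Mlxip and Mlx, and their transcripts moved in opposite directions in these data. Each sequence holds the 250 bases before the RefSeq start site on GRCm38.p6, 5′ to 3′ on the gene's strand, at chr3:96557707-96557956 (plus strand) for Txnip and chr7:68749239-68749488 (minus strand) for Arrdc4. Capitals mark a ChoRE-like pair of boxes, E-boxes, CCAAT boxes on either strand and a FoxO-type motif, which are spelled out after the sequences.
Txnip: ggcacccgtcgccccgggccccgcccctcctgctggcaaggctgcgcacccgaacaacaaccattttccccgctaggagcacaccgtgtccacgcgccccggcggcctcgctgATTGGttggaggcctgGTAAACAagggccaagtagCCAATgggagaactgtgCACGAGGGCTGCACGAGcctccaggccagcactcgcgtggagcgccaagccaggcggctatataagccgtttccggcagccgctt
Arrdc4: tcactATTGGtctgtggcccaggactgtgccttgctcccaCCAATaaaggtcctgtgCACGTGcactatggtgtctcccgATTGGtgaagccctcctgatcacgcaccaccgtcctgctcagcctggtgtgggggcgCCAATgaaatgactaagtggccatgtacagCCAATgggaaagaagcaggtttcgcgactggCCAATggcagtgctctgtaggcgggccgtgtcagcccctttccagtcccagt

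The Txnip sequence holds the ChoRE-like match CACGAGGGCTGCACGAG at positions -85 to -69 from the start site (chr3:96557872-96557888), a FoxO-type motif (GTAAACA) at -121, and CCAAT boxes at -137 and -102. The pattern searched was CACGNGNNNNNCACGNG, or the same with the reverse complement of either outer box in its place, on both strands. It occurred in 24 of 32851 RefSeq promoter windows of this length (0.0731%) and in none of the other members. Arrdc4 held an E-box (CACGTG) at -193 and 6 CCAAT boxes between -245 and -52. The E-box, which can lie inside the longer pattern, was found in 6.02% of all windows. The CCAAT box was found in 33.8% and the FoxO-type motif in 3.17%, both searched on either strand. Mlx held 1 E-box and 2 CCAAT boxes, Mlxip 2 CCAAT boxes, Arrdc2 3, and Arrdc3 1, while Arrdc1 held none of these motifs. A full palindromic glucocorticoid response element, searched by its consensus and found in 0.00913% of windows, was in no member. A match describes these letters only and not binding.

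The libraries held 10734234 to 13649310 reads on genes, and a count of 3 corresponded to 0.21 to 0.302 CPM (counts scaled to each library's total after TMM normalization, as all CPM values here). Treg markers were present in every library: Foxp3 lay at 447 to 622 CPM in aged and 394 to 518 CPM in young libraries, and edgeR called none of 5 Treg markers different. At an unadjusted p under 0.05, 3 of them were higher and 1, Il2ra, the gene of CD25, lower (adjusted p = 0.0589), and DESeq2 called 2 higher and 1 lower. Transcripts of other cells were present as well. Summed erythroid markers ranged from 11580 to 137800 CPM in aged and 11260 to 103800 CPM in young libraries, with no gene of 5 called by edgeR, by DESeq2 or at an unadjusted p under 0.05. B cell markers ranged from 707 to 1418 CPM and from 1158 to 1753 CPM, with none of 5 called by edgeR (2 lower at an unadjusted p under 0.05 and by DESeq2). Neutrophil markers ranged from 486 to 3058 CPM in aged and 197 to 618 CPM in young libraries, with S100a8 and S100a9 of 5 called higher. Platelet markers (18.8 to 39.4 against 8.13 to 16.8 CPM, 1 of 4 called higher) and NK cell markers (18.9 to 31.7 against 33.4 to 57.3 CPM, 1 of 4 called lower) did not overlap in their sums. Monocyte or macrophage markers summed to 239 to 440 against 342 to 405 CPM, with Csf1r (log2 fold change -1.12, adjusted p = 0.0031) and Adgre1 (adjusted p = 0.0127) called lower and Cd14 (adjusted p = 0.0132) higher of 5. Dendritic cell markers summed to 39.9 to 58.9 against 49.9 to 65.8 CPM, with Siglech lower (adjusted p = 0.014) and Zbtb46 higher (adjusted p = 0.0153) of 5. Of 4 plasma cell markers Prdm1 was higher (adjusted p = 0.0326), with sums of 681 to 1224 against 287 to 1917 CPM. CD8 T cell markers summed to 45.4 to 82.0 against 48.8 to 92.8 CPM, with neither of 2 called by edgeR, by DESeq2 or at an unadjusted p under 0.05. No marker of these lists was at 0 in any library. Mitochondrial transcripts made up 5.08% to 10.7% of gene reads in aged and 2.63% to 3.23% in young libraries, without overlap. The part of these cells and transcripts in the results that follow was not tested. All values below come from bulk RNA, in which fewer cells of a type and less RNA per cell cannot be told apart.

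Of 13904 genes tested for age, edgeR's quasi-likelihood test called 2327 (16.7%) at an adjusted p under 0.05, with 1362 (9.80%) higher and 965 (6.94%) lower in aged cells. With the GC content and length trends of each library removed, the split was 1194 higher and 1482 lower. Of the 7 members, 4 were called: Arrdc4, Arrdc1 and Mlxip were higher, and Txnip was lower. The same 4 members had no overlap in CPM between the ages, against 29.9% of all genes tested. Each of the 7 members kept its direction under all 19 alternative analyses.

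**Figure D1:**
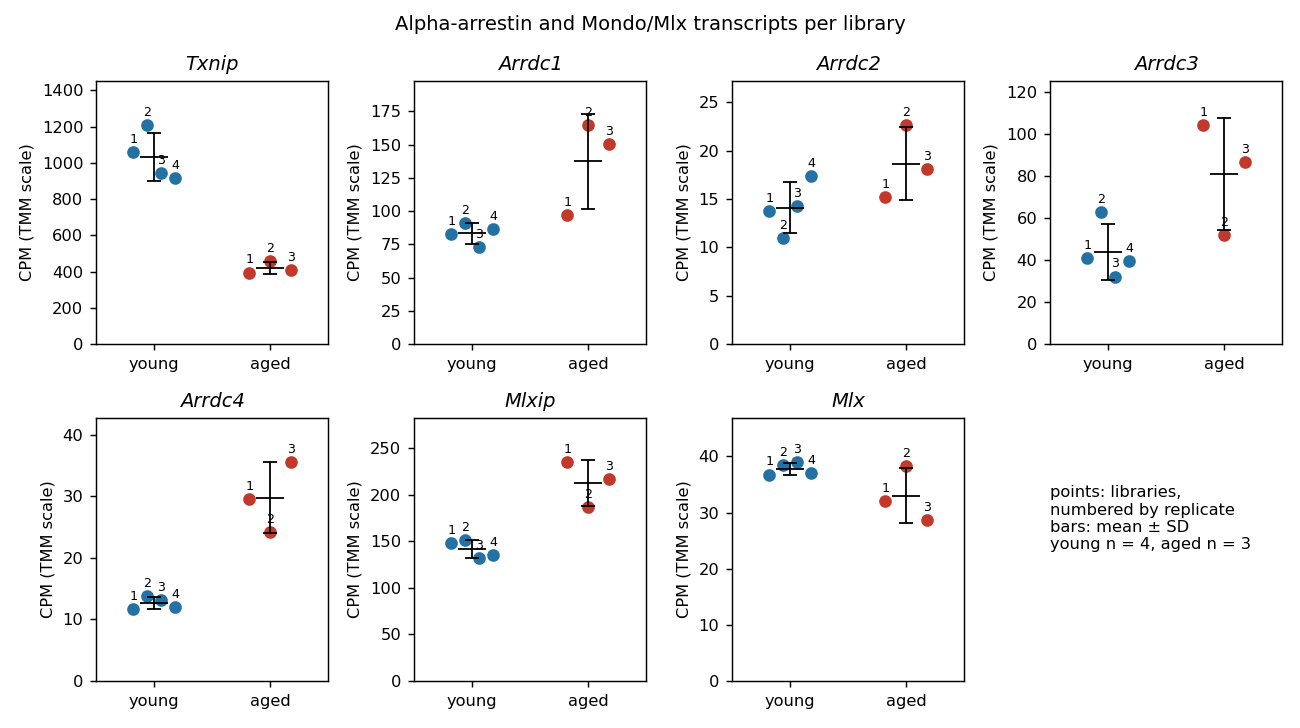
CPM on the TMM scale (vertical axes, each from 0) of the 7 members in each library, numbered by replicate, with mean ± SD over 4 young (blue) and 3 aged (red) libraries. The aged libraries lie below all young ones for Txnip and above all young ones for Arrdc1, Arrdc4 and Mlxip, and the groups overlap for Arrdc2, Arrdc3 and Mlx.

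Txnip (ENSMUSG00000038393, chr3:96557957-96561883, plus strand, GENCODE M21 on GRCm38) was the most abundant member per length and the only one called lower. It measured 396, 456 and 408 CPM in aged libraries 1 to 3, and 1060, 1210, 944 and 916 CPM in young libraries 1 to 4. The lowest young library thus lay above the highest aged one, and the mean was 420 ± 32.2 CPM (SD, n = 3) against 1032 ± 134 CPM (SD, n = 4). The log2 fold change was -1.30 ± 0.14 (SE), a 2.46-fold lower level in aged cells (edgeR, adjusted p = 0.00126). Leaving out each library in turn gave log2 fold changes between -1.36 and -1.21, all called. With haemoglobin, immunoglobulin and mitochondrial genes taken out ahead of scaling, the log2 fold change was -1.30 (adjusted p = 0.000807). By level per length, Txnip had rank 116 to 126 among all annotated genes in the young libraries and rank 282 to 298 in the aged.

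Of the exon bases of Txnip, 19.4% overlap Gm15441 on the opposite strand. The counter and its settings are not given in the sources used here. If the counting ignored strand and gave reads on 2 genes to neither, as the names of the deposited files read, reads in the shared bases would be missing from the count of Txnip at both ages. Gm15441, whose own count would lack the shared reads as well, had 11 to 32 reads per library, at 0.961 to 2.42 CPM in aged and 1.14 to 2.37 CPM in young libraries, with a log2 fold change of -0.19 (adjusted p = 0.799).

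Arrdc4 (ENSMUSG00000042659, chr7:68736995-68749241, minus strand), which shares with Txnip a restraining effect on glucose uptake, moved the other way. Its level was 29.6, 24.2 and 35.7 CPM in the aged libraries and 11.7, 13.8, 13.2 and 12.0 CPM in the young. Every aged library exceeded every young one, with 240 to 381 reads against 134 to 197. The means of 29.8 ± 5.75 CPM (SD, n = 3) and 12.7 ± 0.978 CPM (SD, n = 4) gave a log2 fold change of 1.23 ± 0.15 (SE), a 2.35-fold rise (edgeR, adjusted p = 0.00179). Without single libraries the log2 fold change stayed between 1.09 and 1.36 and was called each time.

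Arrdc1 (ENSMUSG00000026972, chr2:24925352-24935252, minus strand), the alpha-arrestin of plasma membrane vesicles, measured 97.2, 165 and 151 CPM in aged and 83.0, 91.4, 72.9 and 86.7 CPM in young libraries. Aged library 1 lay just above the highest young library, and aged libraries 2 and 3 stood well above it. The log2 fold change was 0.72 ± 0.18 (SE), with means of 138 ± 35.7 CPM (SD, n = 3) and 83.5 ± 7.85 CPM (SD, n = 4) (edgeR, adjusted p = 0.027). The call was lost without aged library 2 (adjusted p = 0.0781), aged library 3 (0.0952), young library 1 (0.0686), young library 3 (0.0762) or young library 4 (0.0656). Without aged library 1 the log2 fold change was 0.91 and without aged library 2 it was 0.57.

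Arrdc3 (ENSMUSG00000074794, chr13:80883384-80896042, plus strand), an adaptor of beta-adrenergic receptors, was not called. Aged libraries measured 104, 52.0 and 86.9 CPM, and young libraries 41.0, 62.9, 32.2 and 39.6 CPM. Young library 2 lay above aged library 2, and the other libraries separated by age. The log2 fold change was 0.88 ± 0.27 (SE), with means of 81.1 ± 26.7 CPM (SD, n = 3) and 43.9 ± 13.2 CPM (SD, n = 4) (edgeR, adjusted p = 0.0585). Leaving out aged library 2 (log2 fold change 1.12, adjusted p = 0.0255) or young library 2 (1.11, adjusted p = 0.0226) brought it past the threshold, as did DESeq2 (adjusted p = 0.0359, or 0.00997 with its own filter) and edgeR without a filter on low counts (adjusted p = 0.0339). Within each age the highest Arrdc3 level was in the library with the smallest haemoglobin share, 1.27% in aged library 1 and 1.24% in young library 2, against 7.60% to 13.1% in the other aged and 5.91% to 10.4% in the other young libraries. This was not particular to Arrdc3: in the same libraries Mlxip was also the highest of its age and Arrdc2 the lowest. Txnip and Arrdc1 were lowest in aged library 1 and highest in young library 2. Arrdc4 and Mlx were neither highest nor lowest in aged library 1. The part of erythroid RNA in the spread of these genes was not tested.

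Arrdc2 (ENSMUSG00000002910, chr8:70835129-70839720, minus strand), a further alpha-arrestin, measured 15.2, 22.7 and 18.2 CPM in aged and 13.8, 10.9, 14.3 and 17.4 CPM in young libraries. Aged library 1 fell among the young libraries, and the difference of 0.40 ± 0.19 on the log2 scale (SE) did not pass the test (edgeR, adjusted p = 0.189). Without aged library 2 it was 0.24 and without aged library 1 it was 0.53, and it was called in no alternative.

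Mlxip (ENSMUSG00000038342, chr5:123394798-123457932, plus strand), the glucose-sensing partner, rose. Its level was 236, 187 and 217 CPM in aged and 149, 151, 133 and 135 CPM in young libraries, without overlap. The means of 213 ± 24.8 CPM (SD, n = 3) and 142 ± 9.47 CPM (SD, n = 4) gave a log2 fold change of 0.59 ± 0.11 (SE) (edgeR, adjusted p = 0.0102), which was called in all 7 analyses without a library. Mlx (ENSMUSG00000017801, chr11:101087277-101092207, plus strand), with which Mlxip binds DNA, did not pass the test. It measured 32.2, 38.3 and 28.6 CPM in aged and 36.8, 38.4, 39.1 and 37.0 CPM in young libraries. Aged library 2 lay within the young range and the others below it, with a log2 fold change of -0.20 ± 0.12 (SE) (edgeR, adjusted p = 0.275). It was -0.10 without aged library 3, -0.32 without aged library 2 and -0.35 with GC content and length trends removed (adjusted p = 0.0522), and was called in no alternative. Of the Mlx exon bases, 19.3% overlap Psmc3ip on the opposite strand and could have the same loss of reads. Mlxipl, which encodes ChREBP, the other ChoRE-binding partner of Mlx and best known from liver and fat, had at most 1 read in any library and was under the filter.

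**Figure D2:**
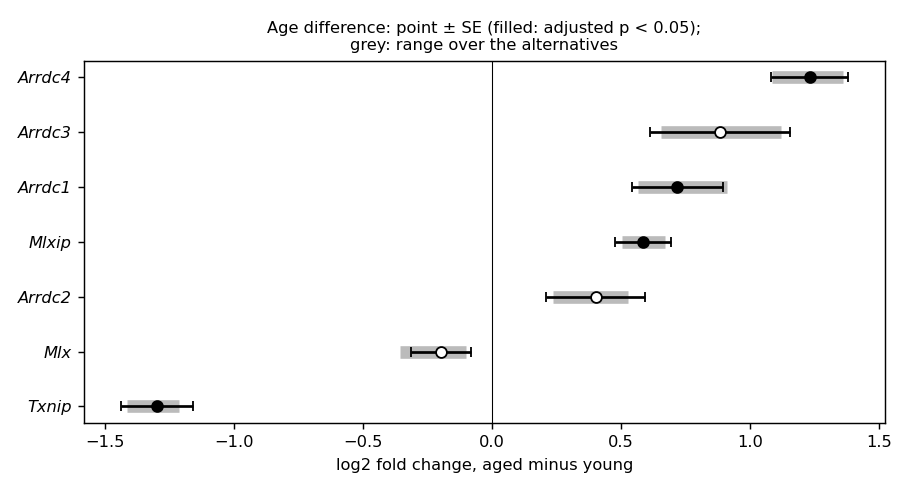
Log2 fold change of aged over young cells (horizontal axis) for the 7 members, with SE as black bars, filled points for an adjusted p under 0.05, and grey bars for the range over the alternative analyses. Txnip lies at -1.30, Mlx at -0.20, and the 4 Arrdc genes and Mlxip between 0.40 and 1.23.

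To compare levels between genes, counts were divided by exon length and scaled to a common total (TPM, a level per length). In young cells the order was Txnip at 877 ± 153 TPM, Arrdc1 at 88.4 ± 13.7, Mlx at 50.3 ± 6.20, Mlxip at 45.1 ± 4.89, Arrdc3 at 18.7 ± 6.71, Arrdc2 at 11.6 ± 2.57 and Arrdc4 at 8.37 ± 1.38 TPM (SD, n = 4). Mlx and Mlxip, Arrdc3 and Arrdc2, and Arrdc2 and Arrdc4 overlapped between libraries. In aged cells the order was Txnip at 301 ± 39.8 TPM, Arrdc1 at 120 ± 15.7, Mlxip at 58.7 ± 18.1, Mlx at 36.8 ± 5.86, Arrdc3 at 30.5 ± 15.1, Arrdc4 at 16.9 ± 5.28 and Arrdc2 at 12.7 ± 0.0609 TPM (SD, n = 3). From Mlxip downward each neighbouring pair in the aged order overlapped. The ranges of Mlxip in TPM overlapped between the ages (40.4 to 76.6 in aged, 40.0 to 51.7 in young), unlike its CPM on the TMM scale. The total to which TPM is scaled includes the mitochondrial and haemoglobin transcripts.

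Txnip made up 87.9%, 87.9%, 87.8% and 85.6% of the summed TPM of these 5 alpha-arrestins in young libraries 1 to 4. In aged libraries 1 to 3 the share was 65.3%, 62.7% and 59.7%. The aged and young shares did not overlap. Arrdc1 took 19.9% to 28.2% of the sum in aged and 8.26% to 10.1% in young libraries, and Arrdc4 2.57% to 4.03% and 0.751% to 0.949%. The sum itself was 420 to 525 TPM in aged and 864 to 1254 TPM in young libraries.

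**Figure D3:**
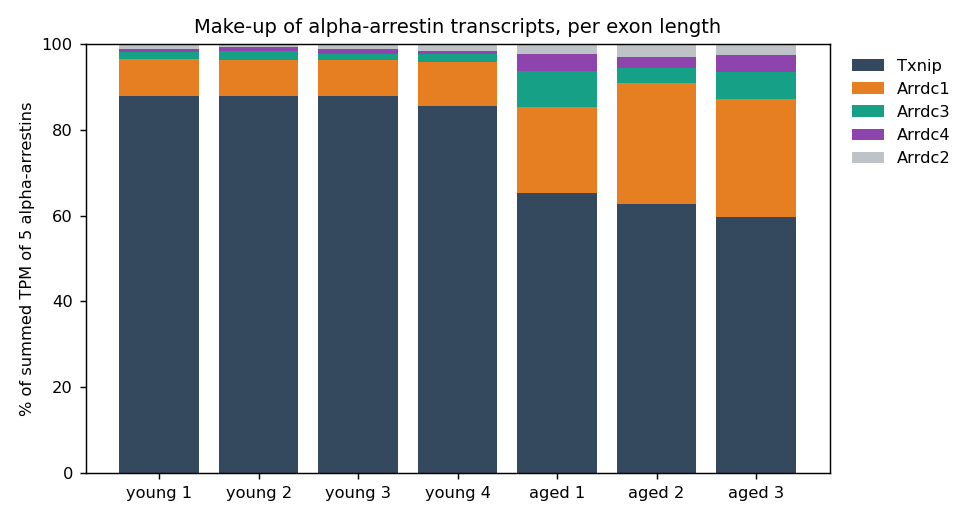
Share (%) of the summed TPM of Txnip and Arrdc1 to Arrdc4 taken by each of them, in 4 young and 3 aged libraries (bars). The Txnip share is 85.6% to 87.9% in young and 59.7% to 65.3% in aged libraries.

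Ratios of 2 genes within a library do not depend on the scaling between libraries. The log2 ratio of Txnip to Txn1, which encodes the thioredoxin that Txnip binds, was 1.91, 2.06 and 1.67 in aged and 3.77, 3.70, 3.50 and 3.57 in young libraries. No aged library reached the lowest young one, and the difference of the means was -1.76, a 3.38-fold lower ratio. For Txnip to Arrdc4 the log2 ratio was 3.74, 4.24 and 3.51 in aged and 6.49, 6.45, 6.16 and 6.25 in young libraries, a 5.69-fold lower ratio (difference -2.51). For Txnip to Arrdc3 it was 1.92, 3.13 and 2.23 against 4.69, 4.27, 4.87 and 4.53 (difference -2.16). The log2 ratio of Mlxip to Mlx was 2.87, 2.29 and 2.92 in aged and 2.01, 1.98, 1.76 and 1.87 in young libraries, a 1.73-fold higher ratio (difference 0.79). The groups did not overlap in any of the 4 ratios, and each gave p = 0.0571 in the two-sided exact permutation test (also 0.0571 after adjustment over the 4), the smallest value that 3 against 4 libraries allow, so that none could pass 0.05.

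**Figure D4:**
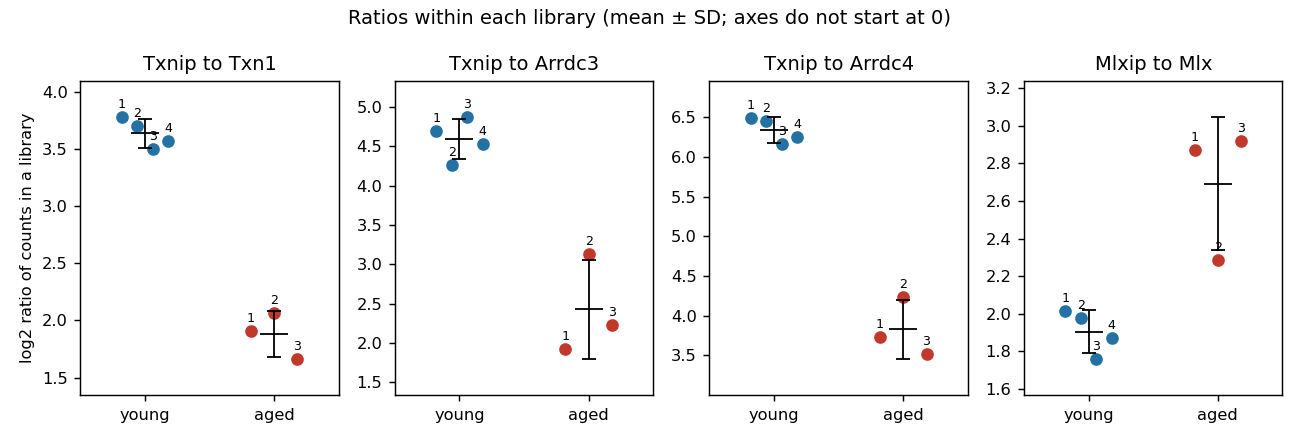
Log2 ratio of the counts of 2 genes within a library (vertical axes, which do not start at 0) for 4 young (blue) and 3 aged (red) libraries, numbered by replicate, with mean ± SD. All aged libraries lie below the young ones for the 3 ratios of Txnip and above them for Mlxip to Mlx.

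The genes whose level across the 7 libraries was most like that of Txnip were sought among 9425 tested genes whose log2 CPM averaged at least 3, by the root mean square difference of log2 CPM after each gene's own mean was subtracted. Likeness includes the age difference itself and is a description. Lef1, a transcription factor of naive T cells, was nearest (0.102), followed by Tmem64 (0.104), Gsta4 (0.106), Igsf23 (0.121) and Slc35g1 (0.143). Lef1 measured 48.7, 54.0 and 47.8 CPM in aged and 107, 124, 104 and 105 CPM in young libraries. As for Txnip, young library 2 was the highest and aged library 2 the highest of its age, which the choice of genes by likeness favours. Gsta4, a glutathione transferase that clears products of lipid peroxidation, lay at 7.25 to 9.97 CPM in aged and 19.4 to 28.0 CPM in young libraries. By this measure the difference from Txnip was 0.556 for Mlx (rank 2152 of the 9425 genes) and 0.892 to 1.26 for the other 5 members, with Arrdc4 the farthest (ranks 8202 to 9080).

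Genes around the members were grouped in 7 lists of 63 genes, of which 58 were tested and 15 called, 3 higher and 12 lower, beside 16.7% of all genes tested called (9.80% higher and 6.94% lower). The lists are small, and their counts are a description. With scaling by library size only, none of their genes was called higher. The median log2 fold change of all genes tested was 0.02. Of 5 other genes of the arrestin fold, which include the alpha-arrestin Arrdc5 with at most 1 read in any library, Arrb1, Arrb2 and Sag were tested, with a median of -0.08 and none called by edgeR, by DESeq2 or at an unadjusted p under 0.05. Arrb2, a beta-arrestin of receptor signalling, measured 149 ± 7.23 against 145 ± 11.0 CPM, and Arrb1 ranged within each age from 127 to 350 CPM in aged and 117 to 308 CPM in young libraries. Of the MAX and MLX network, the family of E-box factors to which Mlxip and Mlx belong, 1 of 9 tested genes was called by edgeR, with a list median of -0.13 (3 lower by DESeq2 and 4 at an unadjusted p under 0.05). Myc, the growth-promoting member, was lower at 83.0 ± 17.9 against 136 ± 14.0 CPM (log2 fold change -0.71 ± 0.16, edgeR, adjusted p = 0.0189). Its call was lost without aged library 2 (adjusted p = 0.0535), aged library 3 (0.0583), young library 1 (0.0531) or young library 4 (0.051).

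The list of the thioredoxin system held Txn1, Txn2 and the reductases Txnrd1, Txnrd2 and Txnrd3, together with 2 genes outside that system whose products bind Txnip, Nlrp3 and Ddit4. Of these 7 genes, all tested, edgeR called 1 higher and 1 lower, with a median of -0.22 (1 higher and 3 lower by DESeq2 and at an unadjusted p under 0.05). Txn1 rose from 82.8 ± 7.56 to 114 ± 12.4 CPM (log2 fold change 0.47 ± 0.11, edgeR, adjusted p = 0.0239), without overlap. This call was lost without aged library 3 (adjusted p = 0.0778) or without young library 1 (0.0644), 3 (0.0644) or 4 (0.0735), and with scaling by library size only (0.099) or GC content and length trends removed (0.0843), where the log2 fold change was 0.27. Ddit4 (REDD1), a stress-induced inhibitor of mTORC1 that can form a complex with Txnip, was lower, at 48.0, 99.1 and 37.0 CPM in aged and 131 to 151 CPM in young libraries (log2 fold change -1.19 ± 0.30, edgeR, adjusted p = 0.0301). Aged library 2 stood above the other aged ones and still under the young range. The Ddit4 call was lost without aged library 1 (adjusted p = 0.0658), aged library 3 (0.077), young library 1 (0.0702), young library 3 (0.065) or young library 4 (0.0739).

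Of the 8 genes of glucose uptake and phosphorylation, edgeR called 2 higher and none lower, and the list median was 0.38. DESeq2 called 3 higher, limma voom called 1, and at an unadjusted p under 0.05 edgeR had 3 higher, with none lower in each. Slc2a3, the transporter GLUT3, rose from 87.0 ± 4.40 to 114 ± 15.7 CPM (log2 fold change 0.38, edgeR, adjusted p = 0.0458), and Slc2a6 from 5.82 ± 1.29 to 9.59 ± 0.321 CPM (0.72, adjusted p = 0.0468). Both calls lay near the threshold: that of Slc2a3 was lost without any single library other than aged library 3 (adjusted p = 0.0857 without aged 1, 0.0966 without aged 2, and 0.105, 0.0895, 0.0867 and 0.1 without young 1 to 4), and that of Slc2a6 without any of the 7 (adjusted p = 0.0538 without young 2 to 0.112 without aged 3). Both were also lost with RLE normalization (adjusted p = 0.0504 for Slc2a3 and 0.0507 for Slc2a6), library size only (0.167 and 0.0812), no filter (0.0862 and 0.0599) and thinning (0.0501 and 0.0627), Slc2a3 with limma voom (0.0502) and Slc2a6 with GC content and length trends removed (0.056). Slc2a1, the transporter GLUT1 that Txnip is known to act on, measured 36.7 to 44.8 CPM in aged and 27.3 to 34.9 CPM in young libraries, without overlap, and did not pass the test (log2 fold change 0.38, adjusted p = 0.0669).

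The list of NEDD4-type ligases, the enzymes to which alpha-arrestins bind, also held Tsg101 and the adaptors Ndfip1 and Ndfip2. Of its 11 tested genes, edgeR called 3 lower and none higher, with a median of -0.04 (5 lower by DESeq2 and at an unadjusted p under 0.05). Itch, which limits T cell activation, was lower at 86.2 ± 7.60 against 115 ± 4.84 CPM (log2 fold change -0.42 ± 0.09, edgeR, adjusted p = 0.0195), and its activator Ndfip2 at 30.5 to 32.6 against 40.0 to 50.7 CPM (-0.50 ± 0.11, adjusted p = 0.0169). Nedd4 itself measured 46.0 ± 15.8 against 81.7 ± 14.1 CPM (-0.83 ± 0.23, adjusted p = 0.0404). The call of Itch was lost without aged 2 (adjusted p = 0.0539), aged 3 (0.074), young 1 (0.0546) or young 4 (0.0589), that of Ndfip2 without aged 3 (0.0582) or young 3 (0.0507), and that of Nedd4 without aged 2 (0.0999), aged 3 (0.137), young 1 (0.0714), young 3 (0.101) or young 4 (0.0965), and with scaling by library size only (0.0595). Tsg101, the partner of Arrdc1 in vesicle release, was not called (47.4 ± 5.22 against 44.1 ± 1.55 CPM, adjusted p = 0.505).

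The list of FoxO factors and quiescence targets holds homing receptors as well as genes of cell cycle arrest and of growth signalling. Of its 12 genes edgeR called 5 lower and none higher, with a median of -0.26. S1pr1, the receptor for exit from lymphoid organs, fell from 233 to 262 CPM in young to 127 to 171 CPM in aged libraries (log2 fold change -0.81 ± 0.13, edgeR, adjusted p = 0.00513). Klf2, a transcription factor that drives S1pr1, fell from 269 ± 74.0 to 121 ± 4.44 CPM (-1.15 ± 0.22, adjusted p = 0.0123), and Foxo1 from 262 ± 25.1 to 179 ± 11.6 CPM (-0.55 ± 0.11, adjusted p = 0.014). Sesn1, a stress-induced inhibitor of mTORC1, fell from 171 ± 20.7 to 105 ± 20.8 CPM (-0.71 ± 0.16, adjusted p = 0.0189). Without aged library 3 the calls of Klf2 (adjusted p = 0.0516), Foxo1 (0.0543) and Sesn1 (0.0713) were lost, that of Sesn1 also without young library 1 (0.0517), while that of S1pr1 held without any single library. Ccr7 (-0.77) was the other called gene of the list. Sesn3 measured 206 to 221 CPM in aged and 169 to 200 CPM in young libraries, higher without overlap, and was not called (log2 fold change 0.20, edgeR, adjusted p = 0.183). Of the other genes not called, Il7r, Cdkn1b, Foxo4 and Ccng2 leaned higher and Foxo3 and Pik3ip1 lower.

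Of the 8 glucocorticoid-responsive genes, edgeR called 2 lower and none higher, with a median of -0.40. DESeq2 called 3 lower and 1 higher, and at an unadjusted p under 0.05 edgeR had 4 lower and 1 higher. Nr3c1, the glucocorticoid receptor, measured 118 ± 18.4 against 119 ± 8.86 CPM (log2 fold change -0.01 ± 0.12, adjusted p = 0.979). Sgk1, a kinase that inactivates FoxO factors, fell from 33.4 ± 1.56 to 11.6 ± 3.21 CPM (-1.52 ± 0.18, edgeR, adjusted p = 0.00158) and was called without any library. Tsc22d3 (GILZ) measured 195, 349 and 188 CPM in aged and 493, 618, 358 and 461 CPM in young libraries (-0.98 ± 0.26, adjusted p = 0.0372), with aged library 2 just under young library 3. That call was lost without aged 1 (adjusted p = 0.0786), aged 3 (0.127), young 1 (0.0815), young 2 (0.0632) or young 4 (0.0772).

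**Figure D5:**
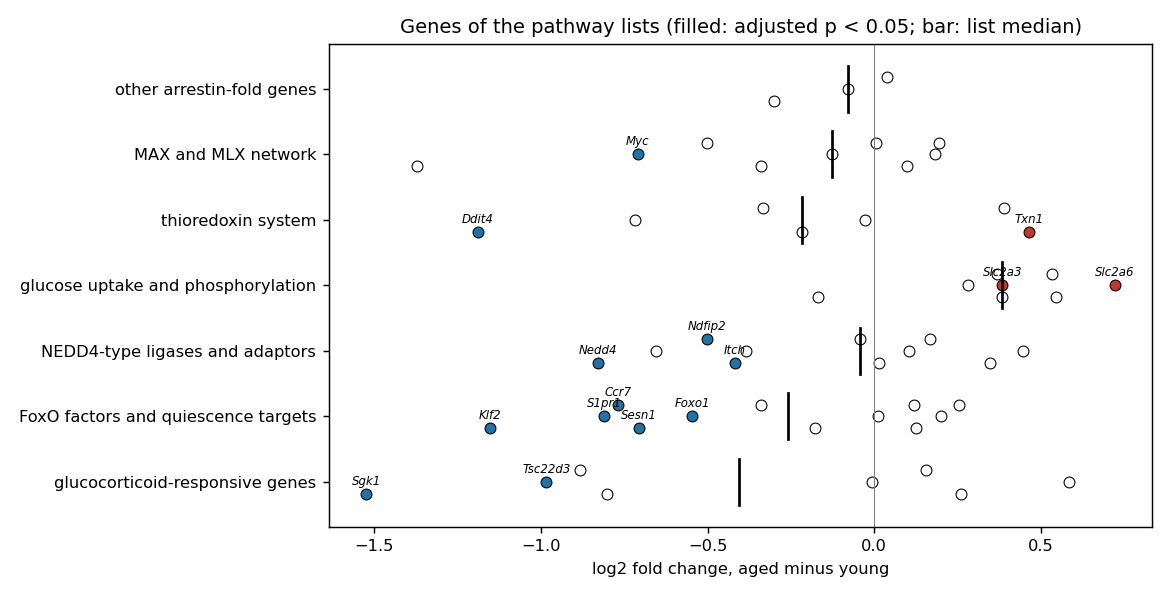
Log2 fold change of aged over young cells (horizontal axis) of each tested gene in the 7 lists around the members. Filled points passed an adjusted p of 0.05 (red higher, blue lower, named) and the bar marks the list median, from -0.40 for glucocorticoid-responsive genes to 0.38 for glucose uptake and phosphorylation.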

How the data were processed

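RNA was extracted with Trizol and cDNA made with the SMART-Seq v4 kit, which adds no molecular identifiers, so limits and depth cover counting error only. For each library the authors deposited raw read counts per Ensembl gene, and for the series a table whose signal is the count divided by 1 size factor per library (checked against the counts). That deposited table also holds the authors' fold changes and p-values, under the column names of DESeq2, which were not used, whereas the study's methods name limma. The submitters' processing notes name the build mm10. The aligner and the read counter are not given in the sources used here. Reads on no single gene (13.1% to 20.9%) were left out.

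The counts of 3 aged and 4 young libraries went into the quasi-likelihood test of edgeR 4.0.16 (R 4.3.3), after TMM scaling and filterByExpr by group and with no covariate, with Benjamini-Hochberg adjustment over 13904 genes. SE was obtained by dividing a log2 fold change by the square root of its F statistic. Replicates differed by more than sampling noise (chi-square per degree of freedom of 8.70 to 183). TPM used exon lengths of GENCODE M21 (GRCm38), in which 47224 of 47729 identifiers matched. Ratios had 0.5 added to each count. Promoter windows came from RefSeq for 7 of 7 members.

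The members, lists and tests were chosen with earlier results of these data known. Named genes are the members, up to 4 called genes with the smallest adjusted p in each list, Txn1, Mlxipl, Foxo1, Nr3c1 and Tsc22d3, and the 5 genes most like Txnip. One gene of the lists is not reported here and was left out of their counts. Other genes were named after their values were seen. Alternatives were DESeq2 1.42.0 (with the same filter, and with its own, added after seeing the data), limma 3.58.1 (voom, and trend with a prior count of 2), RLE, library size only, mitochondrial, immunoglobulin and haemoglobin genes left out, GC content and length trends removed (mgcv 1.9.3), no filter, at least 10 counts in every library, thinning to the smallest library, a replicate block, and each library left out.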

Additional observations from a re-analysis of the deposited data

Results flagged for a closer look

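Of 26 sets of values over the 4 young libraries, 1 for each gene with a test of its own and each ratio, 2 had a library that stood apart by Dixon's criterion on log2 CPM. For Klf2, young library 3 lay at 161 CPM and the other young libraries at 292 to 328 CPM (gap over range 0.836), which places it still above the aged libraries at 116 to 125 CPM. For Slc2a6, young library 2 lay at 3.92 CPM and the others at 6.24 to 6.81 CPM (0.840). Chance marks about 1 in 20 such groups.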

How the results depend on the processing

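Txnip was called lower in each of the 19 alternatives, with log2 fold changes from -1.41 to -1.21. Of all genes, 3804 were called with DESeq2 (2910 with its own filter) and 292 with the replicate block, and 1237 to 3058 without single libraries (fewest without young library 4, most without aged library 1). Without aged library 3, young library 1 and young library 3 the counts were 1262, 1315 and 1270. Members called numbered 1 (Txnip) with the block and 3 to 5 without single libraries. Genes called in the 7 lists numbered 24 with DESeq2, 1 with the block and 3 to 15 without single libraries (3, 5, 9 and 7 without aged 3, young 1, young 3 and young 4). The fold change of Nr3c1 turned to 0.0074 with at least 10 counts in every library and 0.0059 with thinning, and ranged from -0.13 to 0.0956 without single libraries. Under the replicate block the adjusted p was 0.0336 for Txnip, 0.0523 for Arrdc4, 0.108 for Mlxip and 0.118 for Arrdc1. The deviations of same-numbered libraries gave r = -0.0915, -0.292 and -0.138, and those of differently numbered ones -0.241 to 0.227. With so few libraries these values cannot settle whether equal numbers share a day or litter, which the labels do not say. The cause of these changes was not tested, beyond fewer libraries. With 3 against 4 libraries no ratio could pass its test, and Mlxipl, Arrdc5, Arr3, Mycn and Hecw1 were under the filter on low counts.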
